A study of Mus musculus with 12 samples.

Results

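The methionine cycle, transsulfuration and choline genes described here are 10 genes: Ahcy, Mat2b, Cbs, Cth, Mtap, Gnmt, Kyat1, Pemt, Chka and Chdh. They were taken by gene symbol from a bead array table of 25697 probes, which names 16593 genes, and they carry 19 of those probes. A probe counted as well measured when its detection p was under 0.05 on at least 4 of the 12 arrays. That held for 14 of the 19 probes and for 9 of the 10 genes, all except Gnmt. The tissue was normal colon of ApcMin mice, which have 1 truncated copy of Apc, a brake on Wnt signalling, and form intestinal polyps. Every mouse in both groups carried that mutation, so no group is wild type. The sufficient group ate a diet with enough methyl donors (labelled CONTROL), and the deficient group ate one depleted of them (labelled MDD). Both diets ran for 11 weeks, and age and sex are not given in the labels. The labels name 2 sufficient animals, numbered 1 and 3, and 4 deficient animals, numbered 1 to 4, with 2 samples from each.

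Methionine is activated to S-adenosylmethionine, from which methyltransferases take the methyl group for DNA, histones, RNA and lipids. Each transfer leaves S-adenosylhomocysteine, which inhibits methyltransferases until it is hydrolysed to homocysteine. Homocysteine is either methylated back to methionine, with a methyl group from folate or from betaine, or passed through transsulfuration to cysteine and glutathione. Choline enters the same network by oxidation to betaine, or is phosphorylated and built into phosphatidylcholine. The liver is the organ best known for this metabolism, and several of its enzymes are scarce elsewhere.

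Levels are background-corrected, quantile-normalised log2 signals, and a difference is the deficient mean minus the sufficient mean on that scale. A level on 1 probe is not comparable with a level on another probe. Arrays of a labelled animal were averaged, and limma was fitted to the 6 animal means over all 13497 well measured probes. Before any result, the labels have to be set against the sex-linked genes. Eif2s3y, a gene of the Y chromosome, read 9.39 to 10.22 on 8 arrays and 4.47 to 4.56 on the other 4, and the X-inactivation transcript Xist was high on those 4 only. By these genes the arrays of 4 labelled animals differ in sex: both sufficient animals and deficient animals 3 and 4. In a second fit those arrays were regrouped, with arrays of like sex on a diet averaged as sex-matched pairs, again 2 sufficient and 4 deficient units. Deviations of the arrays from their diet mean correlated at 0.37 to 0.73 within sex-matched pairs, and at 0.034, 0.065, -0.25 and -0.27 within those 4 labelled animals. The regrouped pairs share sex by choice, and whether each pair is 1 mouse was not tested. The comparisons are given with both units, except where a value is said to be over labelled animals, since p-values over labelled animals treat arrays of different mice as 1 animal. Also, 4 male arrays carried a high signal of Tgm4, a prostate gene: sample 1 of sufficient animal 1, sample 2 of sufficient animal 3 and both samples of deficient animal 2. They read 12.51 to 12.83 against 4.57 to 4.73 on the other 8 arrays. Every male sufficient array is among them, so results without these 4 arrays compare female sufficient arrays with deficient arrays of both sexes.

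Ahcy, Kyat1 and Chdh were lower on the deficient diet than on the sufficient diet, on every array of each. Over labelled animals these 3 of the 9 measured genes passed an adjusted p of 0.05, all lower, beside 10.8% of all probes tested (5.51% lower and 5.3% higher). Over sex-matched pairs none of the 9 passed in limma by its brightest probe, beside 0.282% of all probes, and 3 had an unadjusted p under 0.05. A second Kyat1 probe did pass over pairs. The median difference of the 9 genes was -0.27, against 0.0060 over all probes tested. In 8 of the 9 the difference was negative, against 48.8% of all probes. The genes were listed with earlier results of these data known, so the comparisons with all probes are descriptive only. The arrays of the diets were fully apart for 3 of the 9 genes, beside 3.06% of probes apart in that direction. Labelled animals were apart for 5 genes, all lower, beside 20.7% of probes, and sex-matched pairs for 3, beside 12.5%. The plot of the members by array shows these levels.

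**Figure D1:**
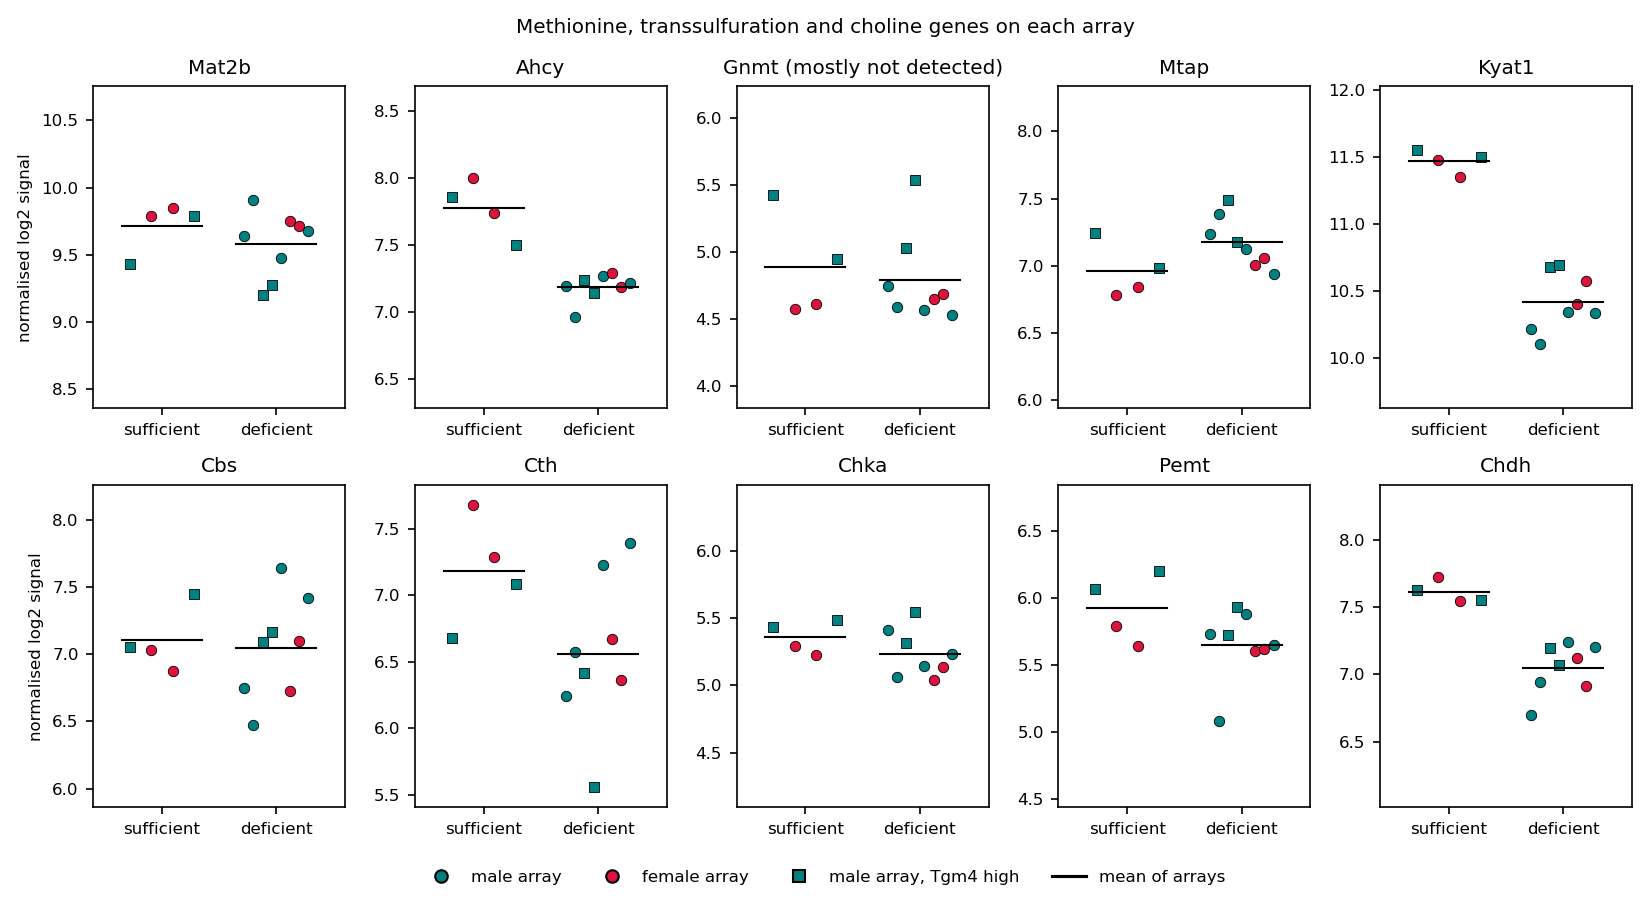
Normalised log2 signal of the 10 genes on each of the 12 arrays, by diet, with 1 panel per gene and the brightest well measured probe (for Gnmt, the probe detected on 2 arrays). Circles are arrays, squares are the 4 arrays with high Tgm4, colours give the sex by Y-linked genes and bars are array means; the diets do not overlap for Ahcy, Kyat1 and Chdh.

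The promoters of the 3 genes that were lower are printed here because they lie around annotated starts of those genes, in a study of methyl supply. Which start the transcript read by each probe comes from was not shown. They are RefSeq sequence of GRCm38.p6, 300 bases around the annotated start, 5′ to 3′ on the gene's strand, with CpG dinucleotides in capitals. Ahcy is at chr2:155074448-155074747 on the minus strand. Kyat1 is at chr2:30205798-30206097 on the minus strand, inside the annotated gene, which extends to 30206295. Chdh has 3 annotated starts, and the first, at chr14:30008750-30009049 on the plus strand, is shown.
Ahcy: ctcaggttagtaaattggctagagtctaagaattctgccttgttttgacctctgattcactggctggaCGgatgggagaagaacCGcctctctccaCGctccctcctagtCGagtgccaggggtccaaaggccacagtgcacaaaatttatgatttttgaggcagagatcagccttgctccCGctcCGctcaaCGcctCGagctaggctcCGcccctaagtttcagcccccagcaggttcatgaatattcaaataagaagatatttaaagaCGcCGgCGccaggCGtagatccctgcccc
Kyat1: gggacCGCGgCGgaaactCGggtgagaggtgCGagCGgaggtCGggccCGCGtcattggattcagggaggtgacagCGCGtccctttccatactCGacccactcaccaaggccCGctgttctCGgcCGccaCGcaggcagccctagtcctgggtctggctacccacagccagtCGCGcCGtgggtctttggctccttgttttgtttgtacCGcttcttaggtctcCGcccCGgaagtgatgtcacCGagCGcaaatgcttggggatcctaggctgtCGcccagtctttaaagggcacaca
Chdh: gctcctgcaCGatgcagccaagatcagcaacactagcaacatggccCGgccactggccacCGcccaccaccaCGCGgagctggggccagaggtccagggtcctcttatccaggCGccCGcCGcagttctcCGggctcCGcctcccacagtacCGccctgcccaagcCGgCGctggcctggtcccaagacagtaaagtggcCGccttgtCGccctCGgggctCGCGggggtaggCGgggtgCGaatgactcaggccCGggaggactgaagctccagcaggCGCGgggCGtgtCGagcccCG

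These windows held 13 CpGs for Ahcy, 25 for Kyat1 and 26 for Chdh, where the median of 32851 annotated promoters is 7. At least as many were found in 37.9%, 18.4% and 16.9% of promoters, respectively. The other starts of Chdh held 4 CpGs each. Methylation was not measured in this series, so the counts describe sequence only. Motifs were searched on both strands. GGGCGG, the GC box, occurred once in Ahcy and Kyat1 and 2 times in Chdh, and is in 35.7% of promoters. CCAAT occurred once in Ahcy and once in Kyat1, and is in 37.4%. CACGTG (in 7.15%), TATAAA (in 13.6%) and TGATGNAA (in 3.97%) were in none of these 3 windows. Each GGGCGG and CACGTG contains a CpG and so overlaps the CpG count. Of the other members, Cbs held 1 CACGTG, and Chka had the most CpGs, with 33. A promoter sequence was found for 9 of the 10 members, all but Cth.

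Ahcy encodes S-adenosylhomocysteine hydrolase, the enzyme that clears the inhibitory product of every methyl transfer. On the sufficient diet its probe read 7.85 and 8.0 for the samples of animal 1, and 7.73 and 7.50 for those of animal 3. On the deficient diet it read 7.20 and 6.97 in animal 1, 7.24 and 7.14 in animal 2, 7.27 and 7.29 in animal 3, and 7.19 and 7.21 in animal 4. The 8 deficient arrays lay in a narrow band below all 4 sufficient arrays, which were more spread. The means were 7.77 ± 0.22 (SD, n = 2 labelled animals) and 7.19 ± 0.08 (n = 4), a level 1.50-fold lower. The difference was -0.58 (SE 0.11, 95% interval -0.84 to -0.33), with limma's adjusted p at 0.0160 over labelled animals. Over sex-matched pairs the SE was again 0.11 and the adjusted p 0.0927. Within male pairs (1 sufficient and 3 deficient units) the difference was -0.51, and within female pairs (1 and 1) it was -0.63, both without a test. Without the 4 Tgm4-high arrays it was -0.68.

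Mat2b encodes the regulatory subunit of methionine adenosyltransferase 2, the enzyme form that makes S-adenosylmethionine outside the liver. Its brightest probe read 9.43 and 9.79 in sufficient animal 1 and 9.85 and 9.79 in sufficient animal 3. The deficient arrays ran from 9.20 to 9.91 with a median of 9.66, so they span the sufficient range. The lowest 2 deficient values, 9.20 and 9.27, are the samples of animal 2, both high in Tgm4. The difference was -0.13 (SE 0.15, interval -0.49 to 0.22), with limma's adjusted p 0.608 over labelled animals and 0.739 over pairs. A second probe gave -0.38 (SE 0.24, adjusted p 0.333 and 0.540 in limma), and its remaining probe was not detected on any array. The interval of the brightest probe does not reach the size of the Ahcy difference, while that of the second, -0.92 to 0.17, includes it.

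Gnmt encodes glycine N-methyltransferase, an abundant liver enzyme that uses surplus S-adenosylmethionine and is also known from prostate and pancreas. It was not well measured. Its better probe was detected on 2 arrays, sample 1 of sufficient animal 1 at 5.43 and sample 2 of deficient animal 2 at 5.54. The next highest arrays were sample 1 of deficient animal 2 at 5.03 and sample 2 of sufficient animal 3 at 4.95. These 4 are the Tgm4-high arrays, and the other 8 lay between 4.53 and 4.75. Pbsn, another prostate gene, read 5.50 to 7.33 on the same 4 arrays and 4.48 to 4.57 on the rest. The part of that tissue in the Gnmt signal was not tested. No diet difference is given for Gnmt. Its second probe was detected on no array.

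**Figure D2:**
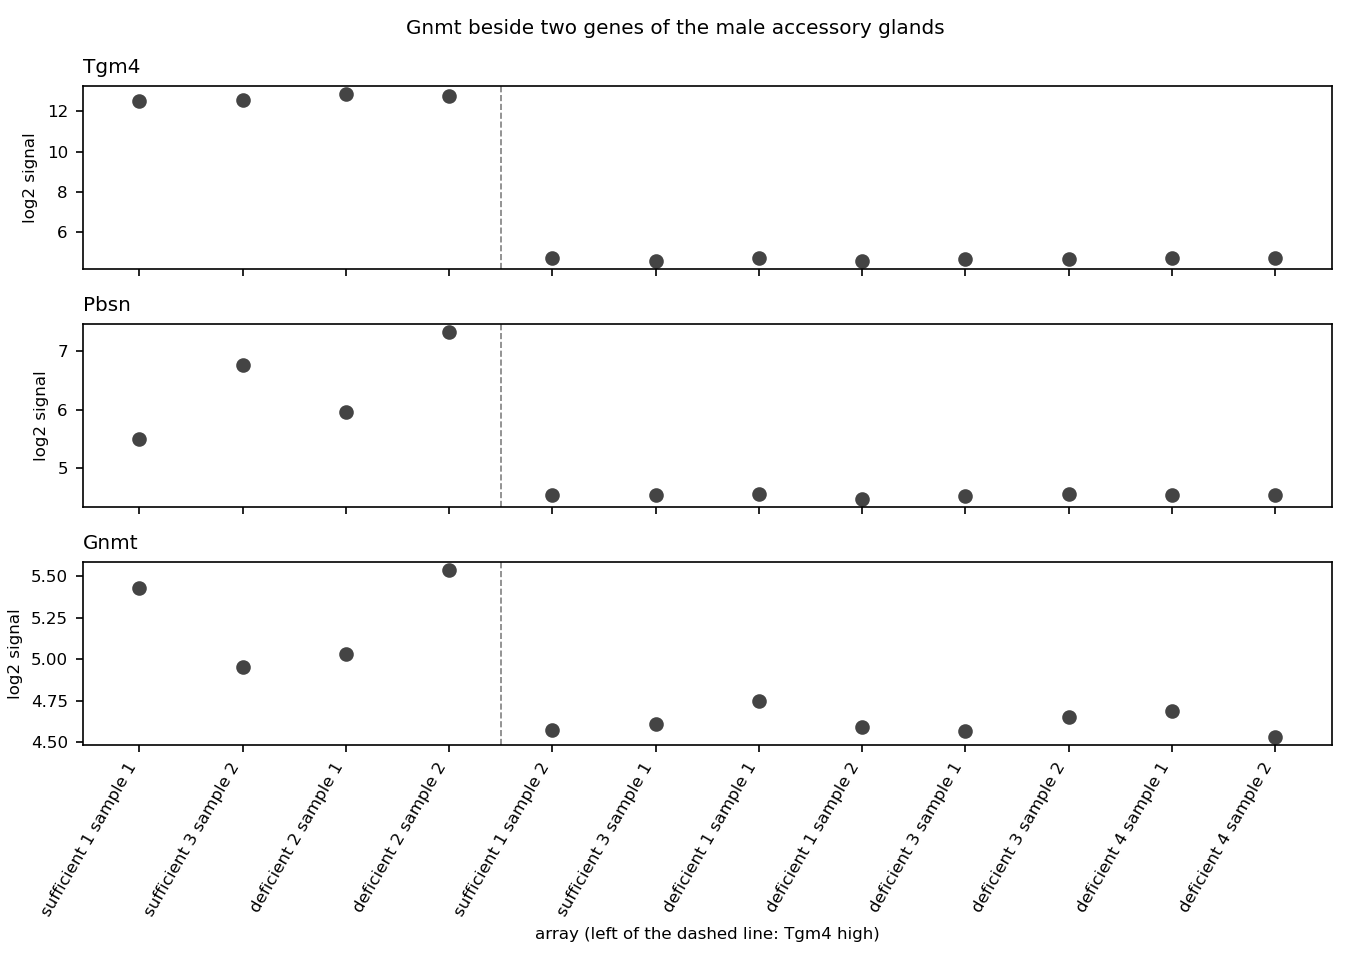
Normalised log2 signal of Tgm4, Pbsn and Gnmt on each array, 1 point per array, with the 4 Tgm4-high arrays left of the dashed line. Gnmt is highest on those 4 arrays, at 4.95 to 5.54, and does not exceed 4.75 on the other 8.

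Mtap and Kyat1 belong to the salvage of methionine from methylthioadenosine, the by-product of polyamine synthesis. Mtap encodes the phosphorylase that cleaves methylthioadenosine. On the sufficient diet Mtap read 7.24 and 6.78 in animal 1 and 6.84 and 6.98 in animal 3. On the deficient diet it ran from 6.94 to 7.49 with a median of 7.15. The highest sufficient value came from a Tgm4-high array, as did the highest deficient value, and the diets overlapped. It was the only one of the 9 genes with a positive difference, 0.21 (SE 0.12, interval -0.06 to 0.49; limma's adjusted p 0.275 and, over pairs, 0.520). Its second probe gave 0.28 (limma's adjusted p 0.228 and 0.477). Without the Tgm4-high arrays that second probe gave 0.48, with limma's adjusted p at 0.0321 over labelled animals, where 19.2% of all probes passed. Only female arrays are then left on the sufficient diet. Over pairs they form 1 unit, so no p is given for that fit. For this probe the sufficient female arrays averaged 6.10 and the male arrays 6.60. Its diet difference was 0.08 within male pairs and 0.35 within female pairs. The part of sex in the 0.48 was not tested.

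Kyat1 encodes kynurenine aminotransferase 1, also called glutamine transaminase K. It converts tryptophan's product kynurenine to kynurenic acid, and can return the keto acid of methionine to methionine with glutamine as amino donor. It showed the largest difference of the 9 genes. On the sufficient diet its brightest probe read 11.55 and 11.47 in animal 1 and 11.35 and 11.50 in animal 3. On the deficient diet it read 10.22 and 10.10 in animal 1, 10.68 and 10.69 in animal 2, 10.35 and 10.40 in animal 3, and 10.57 and 10.34 in animal 4. The sufficient arrays lay close together, and the highest deficient array was 10.69 against a lowest sufficient array of 11.35. The means were 11.47 ± 0.06 (SD, n = 2 labelled animals) and 10.42 ± 0.22 (n = 4), a level 2.07-fold lower. The difference was -1.05 (SE 0.14, interval -1.37 to -0.73), with limma's adjusted p 0.00507 over labelled animals and 0.0645 (SE 0.16) over pairs.

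The second Kyat1 probe was also apart between the diets, at 10.65 to 10.78 on the sufficient arrays and 9.05 to 9.77 on the deficient ones. Its difference was -1.32 (SE 0.13), 2.50-fold lower, with limma's adjusted p 0.00170 over labelled animals and 0.0250 over pairs. It was the only one of the 14 member probes past the threshold over pairs. With sex as a covariate in the pair fit, limma's adjusted p was 0.0694, where 0.0519% of all probes passed. For the brightest probe the difference was -1.13 within male pairs and -0.92 within female pairs, and -1.08 without the Tgm4-high arrays.

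Cbs and Cth encode the 2 enzymes of transsulfuration. Cystathionine beta-synthase joins homocysteine to serine, and cystathionine gamma-lyase splits the product to give cysteine. Cbs read 7.05 and 7.03 in sufficient animal 1 and 6.88 and 7.45 in sufficient animal 3. Its deficient arrays ran from 6.48 to 7.64 with a median of 7.10, so they lay on both sides of the sufficient range. The difference was -0.06 (SE 0.18, interval -0.46 to 0.35; limma's adjusted p 0.862, and 0.931 over pairs), and 0.02 for its second probe (0.939, and 0.972 over pairs). Over sex-matched pairs the interval was -0.63 to 0.51, which does not exclude a difference the size of that of Ahcy.

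Cth read 6.68 and 7.68 in sufficient animal 1 and 7.29 and 7.08 in sufficient animal 3. On the deficient diet it read 6.24 and 6.57 in animal 1, 6.42 and 5.56 in animal 2, 7.23 and 6.67 in animal 3, and 6.36 and 7.40 in animal 4. The lowest sufficient array lay inside the deficient range, and the highest deficient arrays, from animals 3 and 4, reached into the sufficient one. The labelled means were 7.18 ± 0.0041 (SD, n = 2) and 6.56 ± 0.45 (n = 4). The small SD of the sufficient mean hides samples of animal 1 that differ in sex and sit at the lowest and highest sufficient values. The difference was -0.63 (SE 0.25, interval -1.20 to -0.05), with limma's adjusted p 0.145 over labelled animals and 0.427 (SE 0.35) over pairs. It is close in size to that of Ahcy, with a wider error. On the sufficient diet the female arrays averaged 7.48 and the male arrays 6.88. The diet difference was -0.31 within male pairs and -0.97 within female pairs, values that rest on 1 sufficient unit each. Without the Tgm4-high arrays, which leave only female arrays on the sufficient diet, it was -0.74 with limma's adjusted p 0.0301 over labelled animals. In that fit, chosen after seeing the data, 19.2% of all probes passed. Over pairs only 1 sufficient unit is then left, so no p is given. A second Cth probe was not detected on any array.

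Chka encodes choline kinase alpha, which starts the Kennedy route to phosphatidylcholine. It was dim, detected on 4 of 4 sufficient and 4 of 8 deficient arrays. The sufficient arrays read 5.44 and 5.29 in animal 1 and 5.23 and 5.49 in animal 3, and the deficient arrays 5.04 to 5.55. The difference was -0.12 (SE 0.11, interval -0.37 to 0.12; limma's adjusted p 0.482, and 0.682 over pairs). Raising every signal to the array's detection floor left -0.05. Signals this close to the floor limit what a difference can show.

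Pemt encodes the methyltransferase that makes phosphatidylcholine from phosphatidylethanolamine with methyl groups from S-adenosylmethionine, chiefly in liver. It read 6.06 and 5.79 in sufficient animal 1 and 5.64 and 6.20 in sufficient animal 3, and was detected on all 4. The deficient arrays ran from 5.08 to 5.93 with a median of 5.68, and 7 of 8 were detected. The diets overlapped, and 3 of the 4 Tgm4-high arrays lay above every other array. The difference was -0.27 (SE 0.12, interval -0.55 to 0.01; limma's adjusted p 0.190, and 0.479 over pairs). It was -0.12 without the Tgm4-high arrays (limma's adjusted p 0.525 over labelled animals), -0.46 within male pairs and -0.11 within female pairs.

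Chdh encodes choline dehydrogenase, the mitochondrial enzyme that commits choline to betaine and so to remethylation. Its brightest probe read 7.63 and 7.72 in sufficient animal 1 and 7.54 and 7.56 in sufficient animal 3. On the deficient diet it read 6.70 and 6.95 in animal 1, 7.19 and 7.07 in animal 2, 7.24 and 7.12 in animal 3, and 6.92 and 7.20 in animal 4. All 8 deficient arrays lay below the 4 sufficient ones. The means were 7.61 ± 0.09 (SD, n = 2 labelled animals) and 7.05 ± 0.16 (n = 4), a level 1.48-fold lower. The difference was -0.57 (SE 0.12, interval -0.84 to -0.30), with limma's adjusted p 0.0218 over labelled animals and 0.142 over pairs. A second probe was apart as well, at 7.56 to 7.78 against 6.76 to 7.11. That probe differed by -0.67, 1.59-fold lower, with limma's adjusted p 0.00585 and, over pairs, 0.0780. Within male pairs the brightest probe differed by -0.54 and within female pairs by -0.62.

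**Figure D3:**
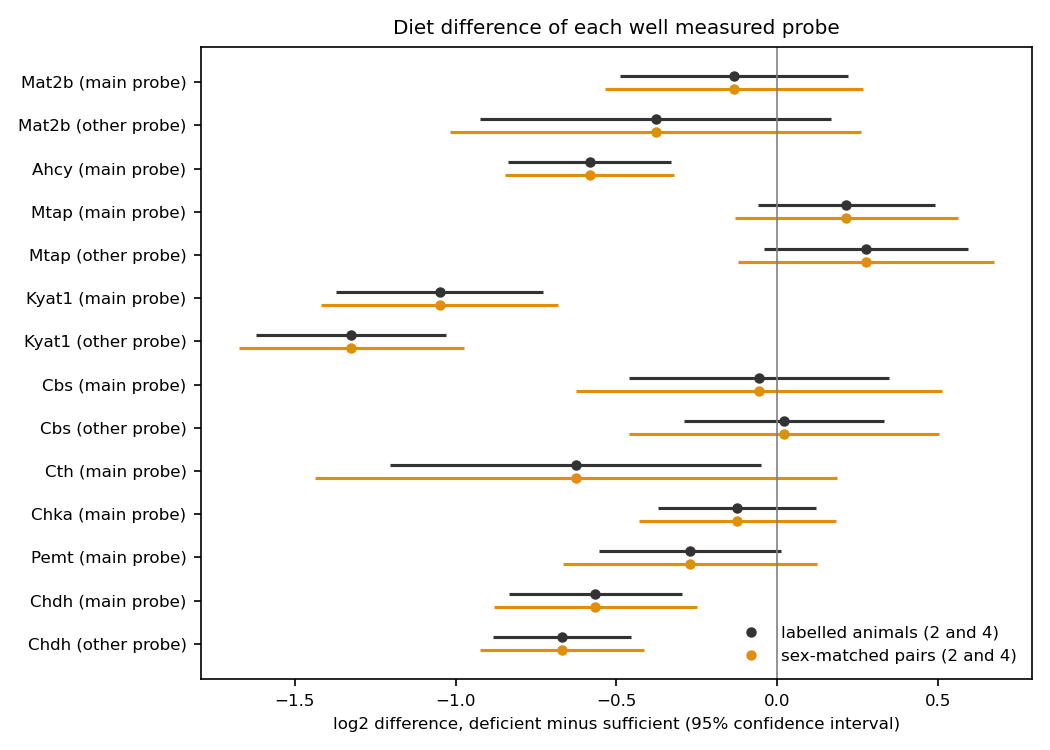
Log2 difference, deficient minus sufficient, of the 14 well measured probes (points) with 95% confidence intervals, from the fit over labelled animals and from that over sex-matched pairs. The intervals of Ahcy, Kyat1 and Chdh stay below 0 in both; that of Cth does so only over labelled animals.

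Over labelled animals, with either sufficient animal left out, none of the 9 genes passed in limma, and 3 had an unadjusted p under 0.05 each time. Ahcy was then -0.43 (adjusted p 0.166 in limma, without animal 1) and -0.74 (0.0659, without animal 3). Kyat1 was -1.01 (0.0752) and -1.09 (0.0695), and Chdh -0.50 (0.191) and -0.63 (0.138). The direction could not turn for these 3 genes, since every deficient array lay below every sufficient one. Each fit assumes that the lone sufficient animal varies like the others.

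The colon wall holds many cell types, and in bulk RNA fewer cells of a type and less RNA per cell cannot be told apart. Markers of other cells moved with the diet. Over labelled animals 4 of 5 measured B and plasma cell markers (8 listed) were lower in limma, 2 of them also over pairs. The summed linear level of all 5 was 1109 to 1320 on the sufficient arrays and 239 to 489 on the deficient arrays. The sums below are likewise over every measured marker of a list, called or not. In the T cell list 2 of 4 were lower, and the list summed to 262 to 324 against 163 to 251. All 4 measured neuron and glia markers were higher, with sums of 386 to 430 against 535 to 947. Of 8 measured colonocyte markers 1 was lower, and the list summed to 43141 to 50935 against 38399 to 46703. Of the other lists 2 of 4 neutrophil markers were lower, with list sums of 361 to 756 against 116 to 440. In the fibroblast list 4 of 7 were higher, with list sums of 8110 to 11065 against 8567 to 14361. Of 4 goblet markers 1 was lower, and of 4 crypt markers 1 was higher and 1 lower. Some of these calls rest on a diet at the detection floor, which was 5.16 to 5.29 in log2 over the arrays. On the deficient diet the lower marker Tnfrsf17 (B and plasma) averaged 4.99, S100a9 (neutrophil) 5.19 and Lgr5 (crypt) 5.18. On the sufficient diet the higher marker Elavl4 (neuron) averaged 5.22. None of the macrophage, smooth muscle, endothelium, adipocyte, liver, pancreas and male accessory gland markers passed. Over pairs no marker passed outside the B and plasma cell list. Of the liver list Alb, Apoa2, Serpina1a, Mat1a and Bhmt were not measured. The part of these cells in the differences of Ahcy, Kyat1 and Chdh was not tested.

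The genes with the nearest profiles were found by the root mean square difference of centred log2 signals over the 12 arrays, among 9393 genes. For Kyat1, whose SD over the arrays was 0.55, they were Lrmp at 0.12, Eno3 at 0.16 and Vpreb3 at 0.19. Lrmp encodes a membrane protein of lymphoid cells, Eno3 the muscle enolase, and Vpreb3 a protein of B-lineage cells. For Ahcy, with an SD of 0.32, the nearest were Appl1 at 0.11, Fgd6 at 0.14 and Pcx at 0.14. Appl1 encodes an endosomal adaptor and Pcx pyruvate carboxylase. For Chdh, with an SD of 0.32, the nearest were Fgd6 at 0.12, Srgn at 0.13 and Slc39a11 at 0.13. Srgn encodes serglycin, the proteoglycan of leukocyte granules, and Slc39a11 a zinc transporter. All of these neighbours had lower means on the deficient diet, with differences of -1.03 to -0.45. They were picked for closeness, over arrays of both diets, to genes already called lower on that diet. Their lower means therefore follow from the choice and are not a separate result.

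Besides the members, 54 genes of the same pathways were listed, of which 47 are on the table and 36 were well measured. Over labelled animals 2 were higher and 1 was lower in limma (5.3% and 5.51% of all probes), and over pairs none passed, with 4 at an unadjusted p under 0.05. Their median difference was -0.05, in a range of -0.54 to 0.54. These counts are close to or below what the shares of all probes would give among 36 genes. The higher count includes Slc5a7, whose probe passed the detection filter only through the deficient arrays, where it is high. None of the 4 genes of S-adenosylmethionine synthesis and remethylation on the table (Mat1a, Mtrr, Bhmt and Bhmt2) was well measured. Mat2a and Mtr were not analysed here. The 3 other genes of S-adenosylhomocysteine use, the Ahcy-like Ahcyl1 and Ahcyl2 and adenosine kinase Adk, differed by 0.0036 to 0.20, and none passed. Of 6 other salvage genes none passed, with differences of -0.07 to 0.34. For choline oxidation the second enzyme, Aldh7a1, was not well measured.

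Of 9 measured genes of transsulfuration and cysteine use 1 was lower. Gss encodes glutathione synthetase, the last step to glutathione. Its brightest probe read 8.54 and 8.53 in sufficient animal 1, 8.71 and 8.07 in sufficient animal 3, and 7.66 to 8.43 on the deficient diet. Single arrays overlapped, and labelled animals did not. The difference was -0.43 (SE 0.10; limma's adjusted p 0.0316, and 0.222 over pairs). Its other 2 probes gave -0.47 and -0.34, with adjusted p 0.132 and 0.0771 in limma over labelled animals, and 0.416 and 0.316 over pairs.

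Of 12 measured genes of choline uptake and the Kennedy pathway 2 were higher. Slc5a7 encodes the high-affinity choline transporter of cholinergic neurons. It read 5.15 and 5.08 in sufficient animal 1 and 4.95 and 5.19 in sufficient animal 3, and was detected on 1 of these 4 arrays. On the deficient diet it read 5.24 to 5.96 and was detected on all 8. The probe passed the filter only through the deficient arrays, and 3 of the 4 sufficient values are not above background. The fitted difference was 0.54 (limma's adjusted p 0.0211, and 0.205 over pairs), and 0.44 with signals raised to the array's detection floor. The neuron and glia markers rose beside it, as given above, and their part was not tested. Slc44a1 encodes a broadly used choline transporter-like protein. It read 8.33 to 9.33 on the sufficient diet and 8.92 to 9.93 on the deficient diet, and differed by 0.48 (SE 0.11; limma's adjusted p 0.0288, and 0.403 over pairs). Without the Tgm4-high arrays it differed by 0.23 (limma's adjusted p 0.220 over labelled animals). A second Slc44a1 probe differed by -0.11 (adjusted p 0.836 in limma, and 0.903 over pairs), so its well measured probes differ in sign. Of 5 measured genes of choline release none passed by its brightest probe. In this role a dimmer probe of Gde1 read 9.88 to 9.98 on the sufficient arrays and 9.05 to 9.85 on the deficient arrays, without overlap. The brightest Gde1 probe overlapped, at 12.18 to 12.33 against 11.70 to 12.35, and so did the remaining one.

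**Figure D4:**
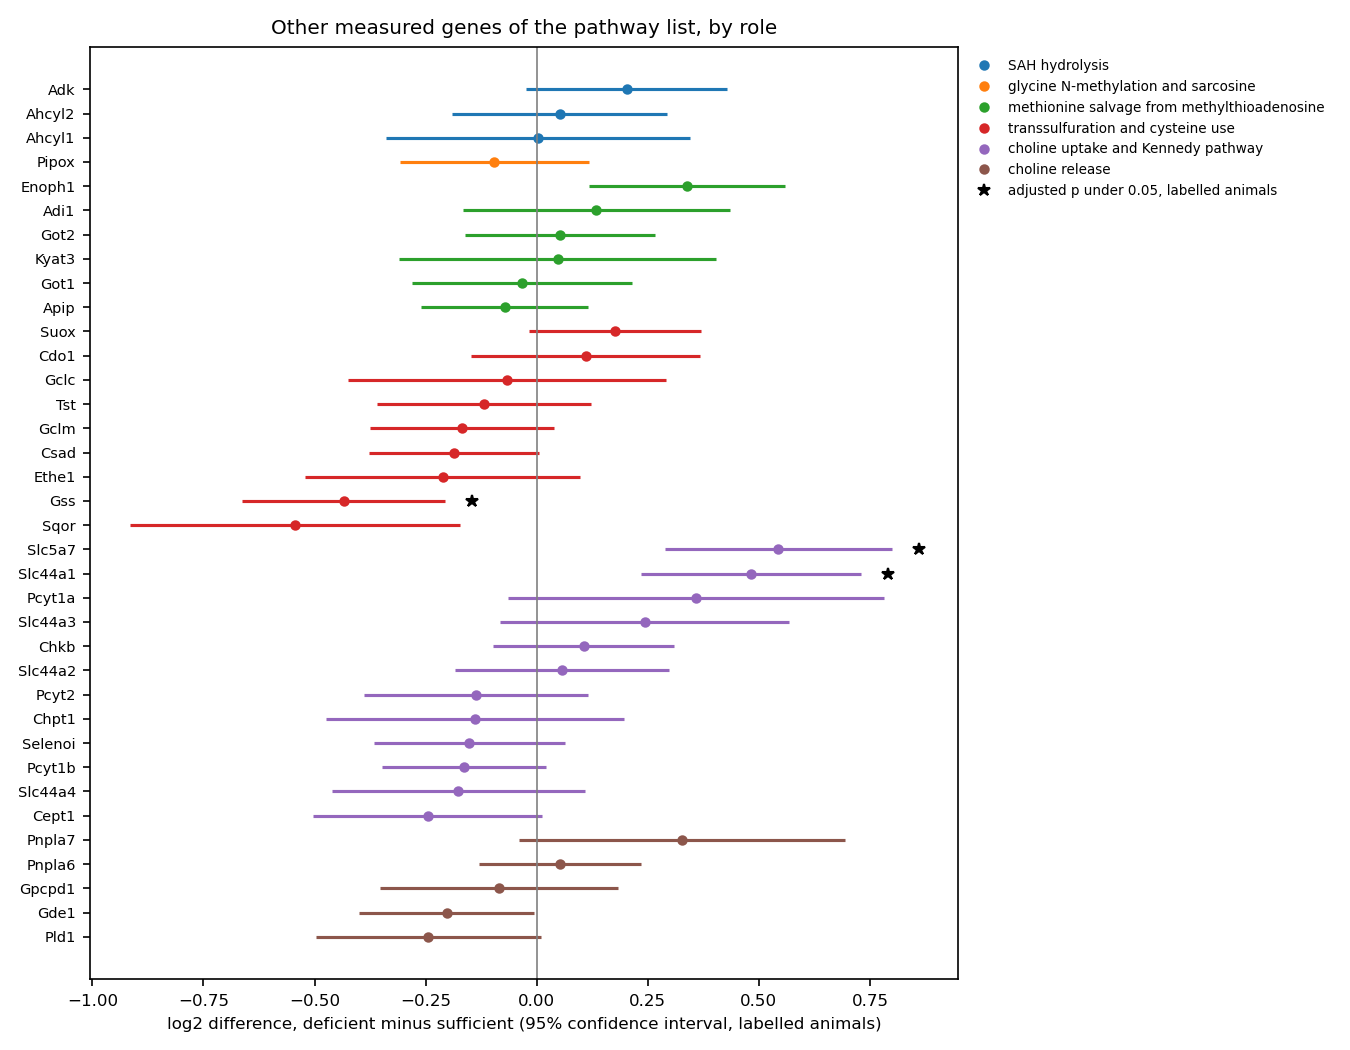
Log2 difference, deficient minus sufficient, of the 36 other measured pathway genes (points, brightest probe) with 95% confidence intervals over labelled animals, coloured by role. Stars mark the 3 with an adjusted p under 0.05: Gss, lower, and Slc5a7 and Slc44a1, higher. The Slc5a7 probe passed the detection filter only through the deficient arrays.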

How the data were processed

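The 12 arrays hold 2 samples from each of 6 labelled animals. The deposited table gives bead intensity, not normalised, and a detection p-value for each probe, per the file headers. The authors' series matrix holds log2 values centred per probe, deposited with no stated normalisation, and served as an alternative. Per the labels' protocols, Trizol-extracted, DNase-treated RNA was labelled as biotin cRNA. Median intensity was 59.4 to 71.5 and 12609 to 13241 probes were detected per array; the number of animals limits precision.

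Signals were normalised with neqc (offset 16) in limma 3.58.1 (R 4.3.3). Of 25697 probes 13497 (52.5%) had a detection p under 0.05 on at least 4 arrays. Arrays were averaged per unit and fitted with lmFit and eBayes (two-sided, Benjamini-Hochberg over all 13497 probes, threshold 0.05), with 4 residual degrees of freedom. Of 23978 named probes 23962 were in RefSeq (GRCm38.p6) and 0 symbols changed. A gene is represented by its brightest well measured probe. The fit was tested on simulated data.

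The members, pathway list and 15 marker lists were chosen with earlier results of these data known. Named are all members, the pathway genes past the threshold over labelled animals that do not overlap (at most 2 per role, by size), and the 3 nearest profiles per called member, without provisional symbols. Genes given as not measured or as examples of a role fall outside that rule. Alternatives changed the unit, block, background correction, scaling, offset, filter, floor, variance trend and arrays kept.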

Additional observations from a re-analysis of the deposited data

Results flagged for a closer look

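In 3 of 28 groups of arrays examined (each well measured member probe within a diet), 1 array lay far from the rest by Dixon's test, which chance gives in about 5% of groups. Ahcy read 6.97 on sample 2 of deficient animal 1, where the nearest deficient array was 7.14 and the farthest 7.29. Pemt read 5.08 on that same array, with 5.60 the nearest and 5.93 the farthest. Mat2b read 9.43 on sample 1 of sufficient animal 1, a Tgm4-high array, with 9.79 the nearest and 9.85 the farthest.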

How the results depend on the processing

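Against 1460 probes, 3 members and 3 other pathway genes over labelled animals, limma called 38, 0 and 0 over sex-matched pairs, and 7, 0 and 0 with sex as a covariate. At an unadjusted p under 0.05 the pair fit held 2023 probes, 3 members and 4 pathway genes, and the covariate fit 1895, 3 and 4. With the pair as a random block over 12 arrays the counts were 522, 3 and 1. Without the 4 Tgm4-high arrays, an alternative chosen after seeing the data, they were 2594, 4 and 6 over labelled animals. Over pairs that leaves 1 sufficient unit, so no counts are given. Leaving out 1 unit gave 0 to 2060 probes, 0 to 3 members and 0 to 4 pathway genes. Without sufficient animal 1 or 3 the probes fell to 98 and 87, and the members and pathway genes to 0. Pathway genes were also 0 without deficient animal 3. Over pairs, leaving out the sufficient or the deficient female pair gave 0 probes (1141 and 1704 at an unadjusted p under 0.05), and leaving out deficient 1, deficient 2 or the deficient male pair gave 6, 14 and 351. A lone sufficient unit is assumed to vary like the others.

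Ahcy, Kyat1 and Chdh were lower under all 29, 30 and 30 alternatives run for them, at -0.74 to -0.43, -1.32 to -0.92 and -0.67 to -0.44, and past the threshold in 15 of 27, 18 of 28 and 15 of 28 that gave a test. For these genes all deficient arrays lay below all sufficient arrays, so leaving out or regrouping arrays could not turn the sign. Several alternatives changed only the error or the probes kept and repeat the same difference. Without the filter on dim probes limma's adjusted p for Chdh was 0.0507. Cth passed in 1 of 27, and Mat2b, Cbs, Mtap, Pemt and Chka in none by their brightest probe. The difference of Cbs kept its sign in 23 of 30 alternatives.

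Animals numbered 1 and 3 exist on both diets. Their deviations correlated at -0.06 and -0.05. Both sufficient labels and deficient animal 3 mix arrays of different sex, so these values cannot decide whether the number pairs the samples. The fit with the animal number as a replicate block called 638 probes, 1 member (Kyat1) and 1 pathway gene. A fit with the chip as a block was not run, since the headers used here name no chip. The cause of these shifts was not tested.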
